A study of Mus musculus with 6 samples.

Results

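The genes described here are 38 markers of macrophages, monocytes and dendritic cells, read in tongue tissue of mice that had received a carcinogen. They were taken by symbol from a table of 35275 genes. Of the 38, 37 were found under that symbol, and Adgre1 was found by its gene ID under its older symbol Emr1. All mice were given 4NQO at 100 µg/ml in their water during 20 weeks. This compound, 4-nitroquinoline 1-oxide, damages DNA and produces squamous lesions of the oral epithelium. The 3 Aim2 KO libraries came from tongues of mice lacking Aim2, and the 3 wild type (WT) libraries from tongues of mice with the gene. Both groups had received 4NQO, so no comparison with untreated tongue was possible. The AIM2 protein binds DNA in the cytosol and starts an inflammasome. The labels give neither strain, sex nor age, and library names share a stem within each genotype. Nothing states that the libraries are of separate animals, and p-values then cover only the spread between libraries, which may be technical.

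Macrophages and dendritic cells arise from bone marrow or embryonic precursors and depend on a small set of growth factor receptors. CSF1R maintains macrophages, FLT3 maintains dendritic cells, and the chemokine receptor CCR2 brings monocytes from blood into inflamed tissue. Resident macrophages of connective tissue take up debris and are known by scavenger and lectin receptors such as CD163, MRC1 and LYVE1. Dendritic cells carry antigen to lymph nodes, guided by CCR7, and Langerhans cells do so from stratified epithelium such as that of the tongue.

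Expression was given as FPKM, that is reads scaled to gene length and library depth, and the values allowed the whole reads to be recovered. The totals ran from 21959204 to 24994421 reads in Aim2 KO libraries and from 24273320 to 25369400 reads in WT libraries. Aim2 itself had 3, 4 and 10 reads in Aim2 KO libraries 1 to 3, against 14, 25 and 30 reads in WT libraries 1 to 3, so the groups did not overlap (exact permutation test of FPKM, two-sided, p = 0.1, the smallest that 3 against 3 allows). The tongue was recognisable by its markers, with a summed level of 35303 to 48974 FPKM in Aim2 KO and 36567 to 45312 FPKM in WT for 10 keratinocyte genes. For 13 skeletal muscle genes the sums were 9791 to 18722 FPKM in Aim2 KO and 16118 to 19213 FPKM in WT. Aim2 KO library 1 stood apart: it was the lowest of the 6 libraries for 13 of 13 muscle genes and for 7 of 7 fibroblast genes.

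The comparison of the genotypes asked which of these myeloid genes differ when Aim2 is absent. Of the 38 genes, 32 had a higher mean in Aim2 KO and 6 a lower mean, where 56.9% of the 22220 genes with a read had a higher mean in Aim2 KO. For 11 of the 38 all 3 Aim2 KO libraries lay above all 3 WT libraries, and for 0 they lay below. Among all genes with a read, 4.78% were higher without overlap and 2.03% were lower without overlap. Of the 21 genes abundant enough for testing 7 were higher without overlap, beside 4.98% of the 12144 genes tested, of which 1.48% were lower without overlap. The other 4 (Ly6c2, Ms4a6c, Batf3 and Cd86) were among the 17 below that level, beside 4.55% of all genes with a read below 1 FPKM and 6.91% of those of 0.1 to 1 FPKM. The 11 genes were spread over monocyte, general phagocyte and dendritic cell markers, and none was a marker of resident tissue macrophages. With Aim2 KO library 1 left out, 24 of the 38 were higher without overlap, beside 15.9% of all genes with a read, and 0 were lower, beside 4.72%. The 24 included the resident macrophage markers Lyve1, Mrc1, Lgmn and Ms4a7. The counts higher were 14 without Aim2 KO library 2 (all genes 10.4%), 11 without Aim2 KO library 3 (7.61%), 14 without WT library 1 (8.08%), 13 without WT library 2 (7.83%) and 12 without WT library 3 (10.2%).

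No single gene of the 38 passed the test across all genes. With limma on log2(FPKM + 1), 21 of the 38 had the mean of at least 1 FPKM needed for testing, and 0 of these had an adjusted p (Benjamini-Hochberg over 12144 genes) below 0.05, beside 0.00823% of all genes tested. At an unadjusted p under 0.05 there were 6 of the 21, beside 2.5% of all genes tested. Of the 21, 17 had a positive log2 difference, beside 57.2% of all genes tested. By limma's voom on the recovered reads, which covered all 38, 0 passed, beside 0.00556% of all genes higher, and 12 had an unadjusted p under 0.05, beside 3.11% of the 18001 genes in that fit. Of the 21, 5 had a WT mean under 1 FPKM and reached the filter only through Aim2 KO (Aif1, Itgam, Ccr2, Itgax and Cd83), so counts over the 21 are a description. Tissue was sequenced in bulk, so a change in the number of cells of a type and a change in RNA per cell cannot be told apart.

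**Figure D1:**
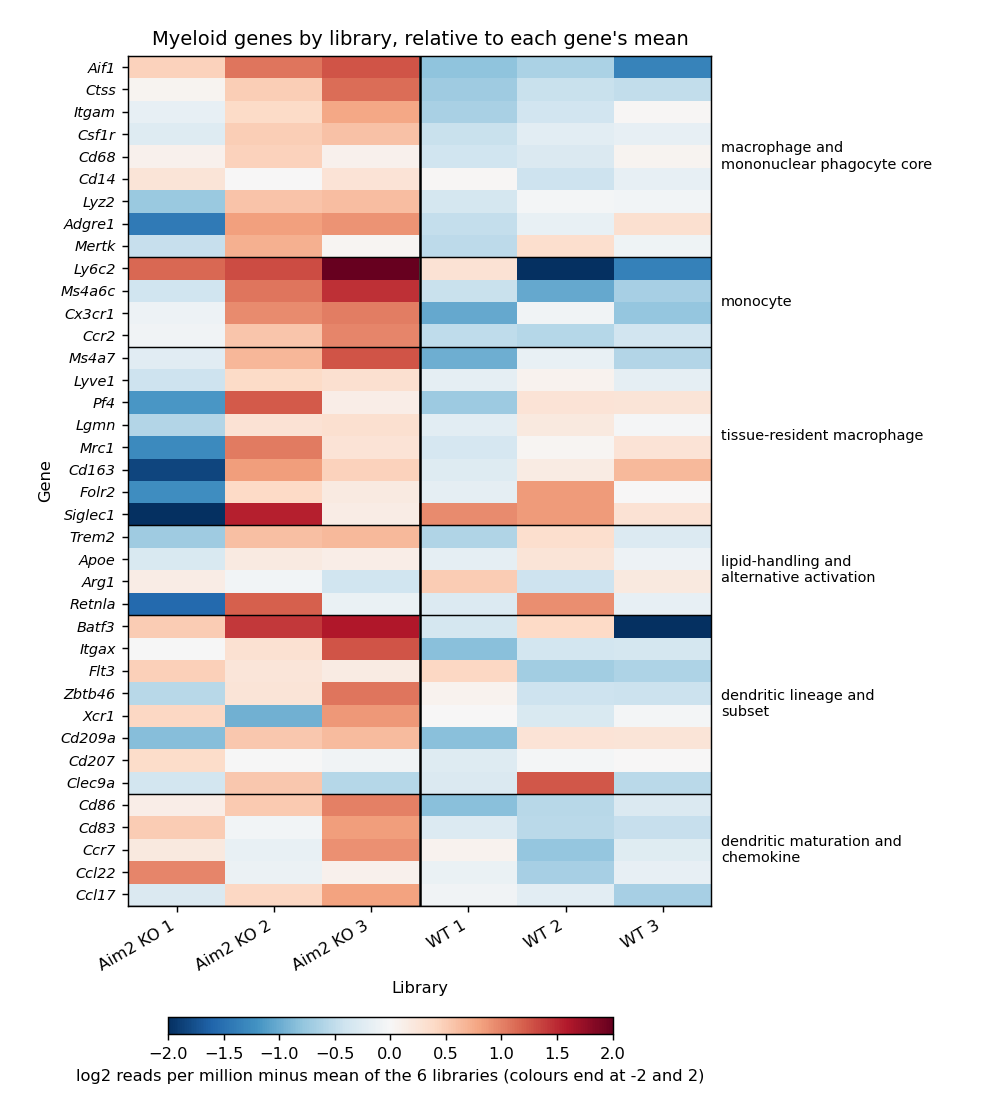
Each row is 1 of the 38 genes, grouped by role, and each column 1 library, with Aim2 KO left of WT. Colour is the log2 depth-scaled reads minus the gene's mean over the 6 libraries. Monocyte and most general phagocyte genes are red in Aim2 KO libraries 2 and 3. Resident macrophage genes also lie above their means in Aim2 KO libraries 2 and 3, and most are deep blue in Aim2 KO library 1.

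General markers of mononuclear phagocytes were higher on average in Aim2 KO for 9 of 9 genes, beside 56.9% of all genes with a read. For 3 of them (Aif1, Ctss and Cd68) the groups did not overlap, beside 4.78% higher without overlap among all genes with a read. Aif1 encodes IBA1, an actin-bundling protein of macrophages (ENSMUSG00000024397; chromosome 17, 35170991 to 35176068, minus strand). It had 1.93, 2.97 and 3.38 FPKM in Aim2 KO libraries 1 to 3, against 0.790, 0.895 and 0.541 FPKM in WT libraries 1 to 3. Every Aim2 KO library lay well above every WT library, on 38, 65 and 65 reads in Aim2 KO against 17, 19 and 12 reads in WT. The log2 difference of 1.10 (SE 0.19, limma adjusted p = 0.504) was the largest of the 21 tested, with an unadjusted p of 0.000442. Aif1 passed when Aim2 KO library 1 was left out (limma adjusted p = 0.0376), where 0.0983% of all genes passed as higher and 0.0164% as lower. It also passed with weights for library quality (limma adjusted p = 0.0109), where 0.535% passed as higher and 0.0247% as lower.

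Ctss encodes cathepsin S, the lysosomal protease that trims the invariant chain during MHC class II loading (ENSMUSG00000038642; chromosome 3, 95526786 to 95556403, plus strand). It had 18.7, 25.3 and 39.2 FPKM in Aim2 KO libraries 1 to 3, against 10.99, 13.3 and 12.9 FPKM in WT libraries 1 to 3. WT libraries lay close together while Aim2 KO libraries spread widely, with library 3 the highest. Ctss differed by 1.04 on the log2 scale (SE 0.24, limma adjusted p = 0.985), and with quality weights it was 1.48 (limma adjusted p = 0.0183).

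The promoters of these 2 genes, which had the smallest p of the 21 tested, are shown beside that of Mrc1, a resident macrophage gene whose groups overlapped. Promoters are RefSeq sequences of GRCm38.p6 from 250 bases before to 50 bases after the transcription start, and 29 of the 38 genes had one in the table used. Capitals mark matches on either strand to GAGGAA, the core bound by the myeloid factor PU.1, or to GAAA followed after any 2 bases by a second GAAA, the interferon-stimulated response element.
Aif1 promoter, chr17:35176003-35176302, minus strand: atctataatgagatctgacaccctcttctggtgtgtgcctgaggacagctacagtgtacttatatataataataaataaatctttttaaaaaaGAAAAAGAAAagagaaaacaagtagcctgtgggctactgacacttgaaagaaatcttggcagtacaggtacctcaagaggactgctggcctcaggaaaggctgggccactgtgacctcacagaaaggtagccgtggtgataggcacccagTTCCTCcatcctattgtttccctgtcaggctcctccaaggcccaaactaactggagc
Ctss promoter, chr3:95526536-95526835, plus strand: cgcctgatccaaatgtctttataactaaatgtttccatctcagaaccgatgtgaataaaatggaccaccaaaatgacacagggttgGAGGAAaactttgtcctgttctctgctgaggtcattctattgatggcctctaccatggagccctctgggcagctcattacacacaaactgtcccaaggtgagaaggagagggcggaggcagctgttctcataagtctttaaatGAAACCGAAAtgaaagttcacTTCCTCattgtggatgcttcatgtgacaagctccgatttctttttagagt
Mrc1 promoter, chr2:14229164-14229463, plus strand: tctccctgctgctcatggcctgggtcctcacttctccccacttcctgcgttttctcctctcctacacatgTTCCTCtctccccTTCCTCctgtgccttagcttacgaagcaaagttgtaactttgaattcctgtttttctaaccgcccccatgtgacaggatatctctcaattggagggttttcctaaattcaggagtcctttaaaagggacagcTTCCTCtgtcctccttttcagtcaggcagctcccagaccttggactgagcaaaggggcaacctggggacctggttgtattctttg
The Aif1 promoter held 1 match to GAGGAA and 1 to the response element, the Ctss promoter held 2 and 1, and the Mrc1 promoter held 3 and 0, and no match overlapped a match to the other motif. Of the 29 genes, 14 had a promoter with GAGGAA, beside 31.3% of all genes in the table (28.3% of all promoters), and 2 had one with the response element, beside 3.99% of all genes (3.44% of all promoters). Both motifs stood together in the promoters of 2 of the 29 genes, Aif1 and Ctss, and in 1.36% of all genes (1.17% of all promoters). A match is a run of letters in this window and says nothing of whether a factor was bound there.

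The other general phagocyte genes differed by less. Cd68, a lysosomal membrane glycoprotein, had 5.81, 7.58 and 5.81 FPKM in Aim2 KO libraries 1 to 3, against 4.17, 4.49 and 5.67 FPKM in WT libraries 1 to 3. The groups were separated only by the small gap between WT library 3 and the lower Aim2 KO libraries (log2 difference 0.36, SE 0.15, limma adjusted p = 0.9998). Csf1r, the receptor that macrophages need for survival, had 2.66, 4.51 and 4.77 FPKM in Aim2 KO libraries 1 to 3, against 2.35, 2.77 and 2.83 FPKM in WT libraries 1 to 3. Here Aim2 KO library 1 lay within the WT range and the other two lay above it (log2 difference 0.42, SE 0.19, limma adjusted p = 0.9998). Cd14, the lipopolysaccharide co-receptor, had 5.45, 4.58 and 5.50 FPKM in Aim2 KO, against 4.61, 3.41 and 4.06 FPKM in WT. Its groups overlapped narrowly, at Aim2 KO library 2 and WT library 1.

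Lyz2, the lysozyme of myeloid cells, was the most abundant of the general phagocyte genes. It had 24.3, 60.4 and 62.2 FPKM in Aim2 KO libraries 1 to 3, against 31.9, 39.7 and 39.3 FPKM in WT libraries 1 to 3. The lowest and the highest libraries were both Aim2 KO, so its log2 difference of 0.29 (SE 0.33) was smaller than its error. Itgam, the integrin alpha chain of complement receptor 3, had 0.859, 1.25 and 1.64 FPKM in Aim2 KO, against 0.610, 0.738 and 0.977 FPKM in WT, with Aim2 KO library 1 inside the WT range. The macrophage adhesion receptor gene Adgre1, which was under the filter, had 0.287, 1.37 and 1.45 FPKM in Aim2 KO, against 0.552, 0.698 and 0.972 FPKM in WT. Mertk, a receptor for the uptake of apoptotic cells, had 0.454, 1.03 and 0.646 FPKM in Aim2 KO, against 0.435, 0.795 and 0.596 FPKM in WT. For Adgre1, Aim2 KO library 1 was the lowest of all 6, and for Mertk the groups were interleaved.

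**Figure D2:**
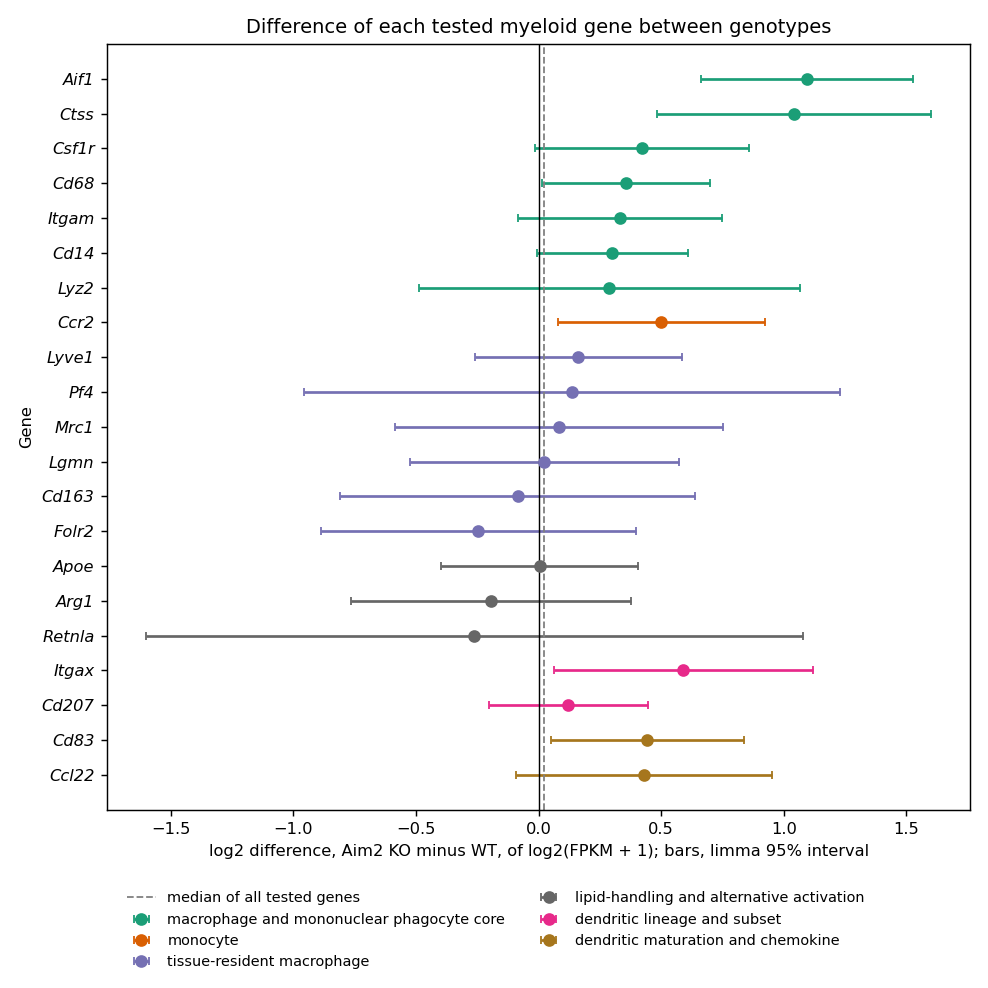
Points are the log2 differences, Aim2 KO minus WT, of the 21 tested genes on the log2(FPKM + 1) scale, with limma 95% intervals and colours by role. The intervals of Aif1, Ctss, Cd68, Ccr2, Itgax and Cd83 lie above 0 before adjustment. Those of all other tested genes span 0, in the general phagocyte, dendritic, alternative activation and resident macrophage roles. Aif1, Ccr2, Itgax and Cd83 reached the filter only through Aim2 KO.

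Monocyte markers were low in abundance and higher on average in Aim2 KO for 4 of 4 genes, beside 56.9% of all genes with a read. The groups did not overlap for 3, beside 4.78% higher without overlap among all genes with a read. Ccr2, the receptor for monocyte-attracting chemokines, had 0.935, 1.46 and 1.94 FPKM in Aim2 KO libraries 1 to 3, against 0.691, 0.661 and 0.757 FPKM in WT libraries 1 to 3. The WT values were close together and all lay below the Aim2 KO values, of which library 1 was the nearest to WT (log2 difference 0.50, SE 0.18, limma adjusted p = 0.9998). Cx3cr1, the fractalkine receptor of patrolling monocytes and some macrophages, had 0.357, 0.740 and 0.782 FPKM in Aim2 KO, against 0.185, 0.365 and 0.222 FPKM in WT. Its groups overlapped narrowly at Aim2 KO library 1 and WT library 2.

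Ms4a6c, a membrane protein of monocytes and macrophages, had 0.386, 1.09 and 1.43 FPKM in Aim2 KO, against 0.376, 0.246 and 0.321 FPKM in WT. The separation rested on 16 reads in Aim2 KO library 1 against 17 reads in the deeper WT library 1, which is not distinguishable at this depth. Ly6c2, the surface antigen of classical monocytes, had 12, 15 and 25 reads in Aim2 KO libraries 1 to 3, against 7, 0 and 2 reads in WT libraries 1 to 3. These were 0.199, 0.224 and 0.425 FPKM in Aim2 KO and 0.106, 0 and 0.0294 FPKM in WT. All Aim2 KO libraries were above all WT libraries, but Ly6c1, a close relative expressed by endothelium, was at 49.6 to 71.9 FPKM in Aim2 KO and 49.5 to 65.1 FPKM in WT. Reads of these near-identical genes could be split by the counting, so the Ly6c2 values are uncertain. By voom on reads the log2 differences of the 4 monocyte genes ran from 0.97 to 3.09 (limma voom adjusted p = 0.9998 each).

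Markers of resident tissue macrophages showed no such separation over the 6 libraries: the groups overlapped for 8 of 8 genes. The mean was higher in Aim2 KO for 5 and lower for 3, beside 56.9% higher among all genes with a read. With Aim2 KO library 1 left out, Lyve1, Mrc1, Lgmn and Ms4a7 were higher without overlap, beside 15.9% of all genes with a read. Aim2 KO library 1 was the lowest of the 6 libraries for 7 of the 8. Among the tested genes it was the lowest for 6 of 6 resident macrophage genes, for 3 of the 15 other members and for 34.3% of all genes tested. Mrc1, the mannose receptor, had 0.473, 2.36 and 1.39 FPKM in Aim2 KO libraries 1 to 3, against 0.912, 1.18 and 1.38 FPKM in WT libraries 1 to 3. Cd163, the haemoglobin scavenger receptor, had 0.306, 1.99 and 1.53 FPKM in Aim2 KO, against 0.924, 1.24 and 1.74 FPKM in WT. For both genes the Aim2 KO values spanned the WT range.

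For Pf4 too the Aim2 KO values spanned the WT range. Pf4, the chemokine CXCL4, which resident macrophages and platelets make, had 2.20, 11.7 and 5.44 FPKM in Aim2 KO libraries 1 to 3, against 2.99, 6.05 and 5.99 FPKM in WT libraries 1 to 3. Folr2, the folate receptor beta, had 0.617, 1.97 and 1.69 FPKM in Aim2 KO, against 1.32, 2.71 and 1.50 FPKM in WT. Folr2 had the most negative log2 difference of the role, -0.25 (SE 0.28), which was smaller than its error, and its highest library was WT. Lyve1, the hyaluronan receptor that lymphatic endothelium also carries, had 2.69, 4.68 and 4.45 FPKM in Aim2 KO, against 3.15, 3.75 and 3.14 FPKM in WT. Lgmn, the lysosomal protease legumain, had 16.2, 29.7 and 30.2 FPKM in Aim2 KO, against 21.0, 27.6 and 23.9 FPKM in WT. In both, Aim2 KO library 1 was the lowest and the other two exceeded every WT library.

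Siglec1, the sialoadhesin of resident macrophages, was close to the detection limit with 0, 22 and 7 reads in Aim2 KO libraries 1 to 3, against 14, 13 and 9 reads in WT libraries 1 to 3. Ms4a7 was the exception in the role, because Aim2 KO library 1 was not its lowest. It had 0.418, 0.788 and 1.19 FPKM in Aim2 KO, against 0.248, 0.445 and 0.328 FPKM in WT, and Aim2 KO library 1 lay just under WT library 2. Over the 6 tested genes of the role the median log2 difference was 0.05, beside 0.36 over the 7 tested general phagocyte genes, of which 2 reached the filter only through Aim2 KO, and 0.02 over all 12144 genes tested. The difference between the roles was not tested. Without Aim2 KO library 1 the resident median was 0.33, and without Aim2 KO library 2 it was -0.26.

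**Figure D3:**
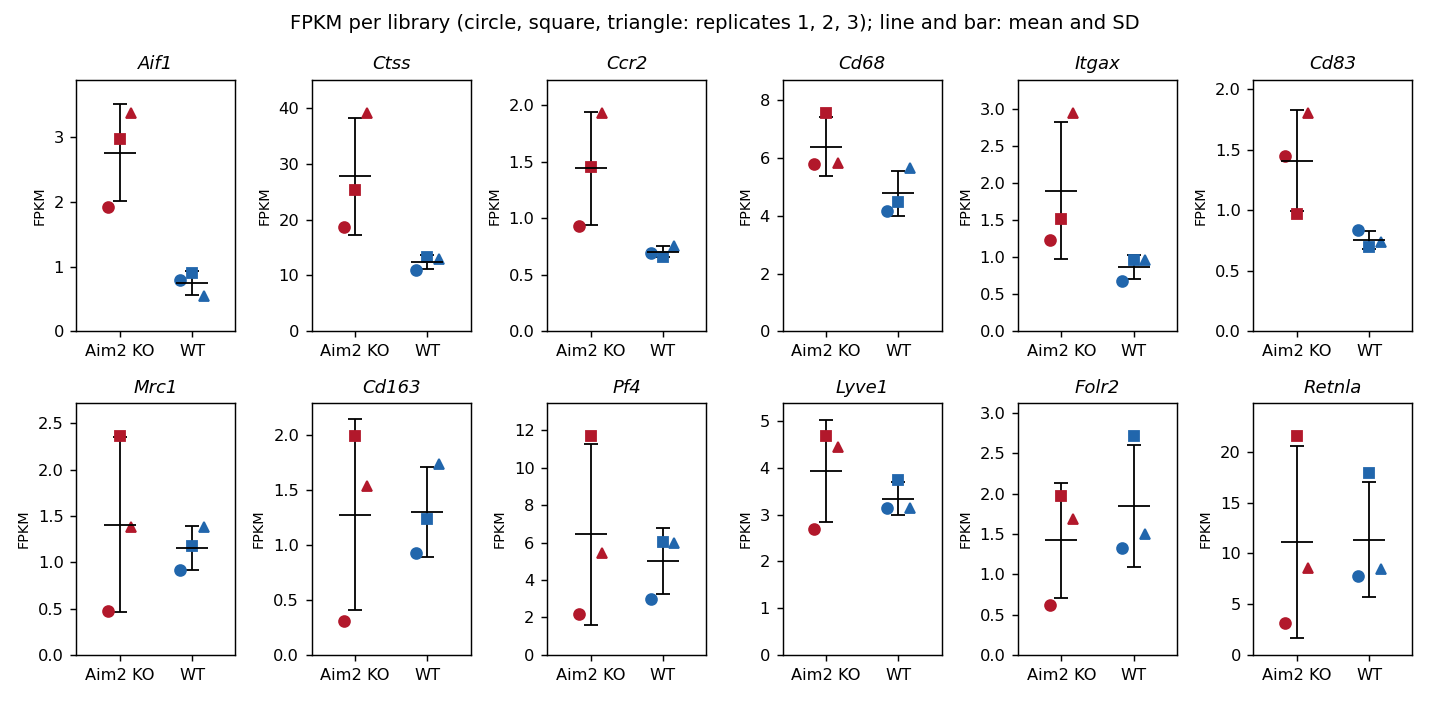
Points are FPKM of 12 genes in each library, with Aim2 KO left of WT, and lines and bars are mean and SD of 3 libraries. In the upper row all Aim2 KO libraries lie above all WT libraries, and in the lower row Aim2 KO library 1 is the lowest of the 6 for each gene.

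Genes of alternative activation and lipid handling held most of the summed FPKM of the 38, and their groups overlapped. Arg1, the enzyme arginase 1, had 146, 127 and 99.2 FPKM in Aim2 KO libraries 1 to 3, against 186, 98.7 and 151 FPKM in WT libraries 1 to 3. Apoe, the lipid carrier apolipoprotein E, had 73.9, 102 and 99.4 FPKM in Aim2 KO, against 80.3, 109 and 85.0 FPKM in WT. Both are also expressed outside the myeloid lineage, and both had log2 differences within their errors (-0.19, SE 0.25 for Arg1 and 0.00, SE 0.17 for Apoe, with 95% intervals of -0.77 to 0.38 and -0.40 to 0.41). Retnla, a secreted product of alternatively activated macrophages, had 3.19, 21.5 and 8.61 FPKM in Aim2 KO, against 7.76, 17.9 and 8.44 FPKM in WT. Its lowest and highest libraries were both Aim2 KO (log2 difference -0.26, SE 0.58). Trem2, a lipid-sensing receptor, was under the filter with 11, 31 and 28 reads in Aim2 KO and 13, 25 and 17 reads in WT.

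Dendritic cell genes were higher on average in Aim2 KO for 12 of 13, beside 56.9% of all genes with a read. The groups did not overlap for 5, beside 4.78% higher without overlap among all genes with a read. Itgax, the integrin chain CD11c, had 1.23, 1.51 and 2.95 FPKM in Aim2 KO libraries 1 to 3, against 0.684, 0.957 and 0.965 FPKM in WT libraries 1 to 3. All Aim2 KO libraries lay above WT, with library 3 well above the rest (log2 difference 0.59, SE 0.23, limma adjusted p = 0.9998). Cd207, the langerin of Langerhans cells, had 2.17, 1.67 and 1.61 FPKM in Aim2 KO, against 1.41, 1.64 and 1.70 FPKM in WT. Its groups overlapped and its log2 difference was 0.12 (95% interval -0.20 to 0.44).

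Genes that mark dendritic cell subsets were under the filter and rested on few reads. Batf3, the transcription factor of cross-presenting dendritic cells, had 7, 15 and 15 reads in Aim2 KO libraries 1 to 3, against 4, 7 and 0 reads in WT libraries 1 to 3. Its FPKM values of 0.436, 0.843 and 0.959 in Aim2 KO lay above the 0.229, 0.405 and 0 of WT, although Aim2 KO library 1 and WT library 2 had the same number of reads. Xcr1, a chemokine receptor of the same cells, had 17, 7 and 23 reads in Aim2 KO and 14, 11 and 14 reads in WT. Clec9a, their receptor for dead cells, had 6, 13 and 5 reads in Aim2 KO and 7, 21 and 6 reads in WT. Of these 3 genes Batf3 was higher without overlap, and Clec9a had the lower mean in Aim2 KO.

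Zbtb46, a transcription factor of classical dendritic cells, had 0.359, 0.633 and 1.12 FPKM in Aim2 KO libraries 1 to 3, against 0.559, 0.396 and 0.394 FPKM in WT libraries 1 to 3. Flt3, the growth factor receptor of the lineage, had 0.322, 0.275 and 0.261 FPKM in Aim2 KO, against 0.310, 0.141 and 0.150 FPKM in WT. Cd209a, a lectin of monocyte-derived and type 2 dendritic cells with close relatives in the genome, had 0.299, 0.809 and 0.859 FPKM in Aim2 KO, against 0.302, 0.666 and 0.664 FPKM in WT. The groups overlapped for all 3 of these genes.

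The genes of dendritic cell maturation were higher on average in Aim2 KO for 5 of 5, beside 56.9% of all genes with a read. For 3 (Cd83, Cd86 and Ccl22) the groups did not overlap, beside 4.78% higher without overlap among all genes with a read. Cd83, a surface protein of mature dendritic cells, had 1.45, 0.971 and 1.81 FPKM in Aim2 KO libraries 1 to 3, against 0.835, 0.692 and 0.736 FPKM in WT libraries 1 to 3. Cd86, a costimulatory ligand for T cells, had 0.786, 1.04 and 1.45 FPKM in Aim2 KO, against 0.401, 0.487 and 0.590 FPKM in WT. The gaps rested on few reads: 52 in Aim2 KO library 2 against 44 in WT library 1 for Cd83, and 45 in Aim2 KO library 1 against 38 in WT library 3 for Cd86, which are within counting error. The log2 difference of Cd83 was 0.44 (SE 0.17, limma adjusted p = 0.9998), and that of Cd86 by voom on reads was 1.11 (SE 0.36, limma voom adjusted p = 0.9998).

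Ccl22, a chemokine that draws CCR4-bearing T cells, had 3.84, 1.79 and 2.08 FPKM in Aim2 KO libraries 1 to 3, against 1.78, 1.23 and 1.74 FPKM in WT libraries 1 to 3. Aim2 KO library 1 was by far the highest, and library 2 exceeded WT library 1 by less than counting error (99 against 97 reads). Its log2 difference was 0.43 (SE 0.22), and 0.19 at the lowest when a library was left out. Ccl17, a ligand of the same receptor, had 0.605, 1.01 and 1.33 FPKM in Aim2 KO, against 0.714, 0.642 and 0.461 FPKM in WT, on at most 15 reads. Ccr7, the receptor that guides dendritic cells to lymph nodes, had 0.538, 0.425 and 0.898 FPKM in Aim2 KO, against 0.494, 0.271 and 0.399 FPKM in WT. For Ccl17 and Ccr7 the groups overlapped.

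Other genes of the same cells, read from lists beside the 38, gave the following counts. Among all genes with a read, 56.9% had a higher mean in Aim2 KO and 4.78% were higher without overlap. Of 32 further macrophage genes 27 had a higher mean in Aim2 KO and 8 were higher without overlap. Of the 20 tested, 4 of them through Aim2 KO alone, 0 passed. Tyrobp, the signalling adaptor of myeloid receptors, had the smallest p, with 7.79, 10.6 and 12.8 FPKM in Aim2 KO, against 5.91, 4.02 and 3.77 FPKM in WT (log2 difference 1.03, SE 0.21, limma adjusted p = 0.727). Of 22 further dendritic cell genes 21 had a higher mean in Aim2 KO and 6 were higher without overlap. Of the 13 tested, 3 of them through Aim2 KO alone, 0 passed. Of 17 myeloid transcription factors 13 were tested, 7 were positive and 6 negative (median 0.04), and 0 passed. The leading factors were Spi1, which encodes PU.1, and Irf8, which dendritic cells and monocytes require. Spi1 had 2.38, 3.38 and 3.29 FPKM in Aim2 KO, against 1.50, 2.09 and 1.84 FPKM in WT. Irf8 had 2.31, 2.79 and 3.44 FPKM in Aim2 KO, against 1.67, 1.97 and 1.44 FPKM in WT. For both the groups did not overlap, with log2 differences of 0.51 (SE 0.15, limma adjusted p = 0.9998 each).

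The growth factors and ligands of the receptors were examined last. Of 9 growth factor and receptor genes 4 were tested, 3 were positive and 1 negative, and 0 passed. Il34, the CSF1R ligand that keratinocytes make, was the negative one, with 7.44, 8.98 and 6.52 FPKM in Aim2 KO, against 9.56, 9.08 and 10.5 FPKM in WT. Its groups did not overlap, by a narrow gap (log2 difference -0.32, SE 0.13, limma adjusted p = 0.9998). Csf1, the other ligand, had 2.00, 3.49 and 3.54 FPKM in Aim2 KO, against 1.87, 2.95 and 3.22 FPKM in WT, and its groups overlapped. The receptor gene Csf2rb had 1.49, 1.66 and 1.97 FPKM in Aim2 KO, against 1.08, 1.30 and 1.17 FPKM in WT. Its groups did not overlap (log2 difference 0.31, SE 0.14, limma adjusted p = 0.9998). Of the 9 genes 1 was higher and 1 lower without overlap, beside 4.78% and 2.03% of all genes with a read. Of 10 chemokines and receptors that pair with members 10 had a higher mean in Aim2 KO and 5 were higher without overlap. The shares among all genes with a read were 56.9% and 4.78%. Of the 5 tested, 2 of them through Aim2 KO alone, 0 passed. The CCR2 ligand Ccl2 had 16.3, 2.66 and 5.19 FPKM in Aim2 KO, against 2.64, 1.92 and 1.33 FPKM in WT, with Aim2 KO library 1 highest and Aim2 KO library 2 next to WT library 1. Cx3cl1, the ligand of CX3CR1, had 6.19, 4.99 and 5.46 FPKM in Aim2 KO, against 3.83, 4.90 and 4.20 FPKM in WT (log2 difference 0.30, SE 0.13). Its groups again did not overlap, but Aim2 KO library 2 exceeded WT library 2 by less than counting error (413 against 394 reads).

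Most markers of other leukocytes also had a higher mean in Aim2 KO. For keratinocyte, muscle and fibroblast genes the groups overlapped, except for 1 muscle gene that was lower without overlap. Among all genes with a read, 56.9% had a higher mean in Aim2 KO and 4.78% were higher without overlap. Of 14 pan-leukocyte genes, 14 had a higher mean in Aim2 KO and 13 did not overlap, and their summed level was 63.6 to 89.6 FPKM in Aim2 KO and 35.9 to 42.7 FPKM in WT. For 10 T cell genes the sums were 12.3 to 29.9 FPKM in Aim2 KO and 12.9 to 13.8 FPKM in WT, with 9 of 10 means higher in Aim2 KO. For 10 MHC class II genes they were 361 to 528 FPKM in Aim2 KO and 215 to 232 FPKM in WT. The sums of 7 fibroblast genes were 124, 309 and 280 FPKM in Aim2 KO libraries 1 to 3, against 168, 212 and 199 FPKM in WT libraries 1 to 3. The mean was higher in Aim2 KO for 7 of the 7 fibroblast genes, and 0 were higher without overlap. No gene of the pan-leukocyte, T cell and fibroblast lists was at 0 in any library. Of the remaining lists, the mean was higher in Aim2 KO for 6 of 8 B and plasma cell genes, 7 of 8 mast cell genes, 11 of 11 neutrophil genes, 6 of 7 endothelial genes, 6 of 10 keratinocyte genes, 2 of 13 skeletal muscle genes and 2 of 5 adipocyte genes, and 0 tested genes passed in each. For the 11 neutrophil genes the groups overlapped in every case, Aim2 KO library 2 was the highest for 7, and by voom 7 differences were positive and 3 negative. Of these genes 2 were tested, and both log2 differences were negative. The summed level was 6787, 1111 and 791 FPKM in Aim2 KO libraries 1 to 3 over all 11, against 3499, 2304 and 2363 FPKM in WT libraries 1 to 3. Nearly all of this sum came from the 2 tested genes, as the others had a mean under 1 FPKM. The part of these cell types in the results for the 38 genes was not tested.

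The resident macrophage, fibroblast and endothelial genes ordered the libraries alike. On the scale of log2 depth-scaled reads minus each gene's mean over the 6 libraries, the 8 resident macrophage genes averaged -1.32, 0.80 and 0.39 in Aim2 KO libraries 1 to 3, against -0.24, 0.29 and 0.09 in WT libraries 1 to 3. The 7 fibroblast genes averaged -1.25, 0.87 and 0.45 in Aim2 KO, against -0.44, 0.35 and 0.03 in WT. The 7 endothelial genes averaged -0.80, 0.59 and 0.30 in Aim2 KO, against -0.31, 0.29 and -0.07 in WT. All 3 sets put the 6 libraries in the same order, and they share those libraries and their depth. The 14 pan-leukocyte genes, at 0.29, 0.35 and 0.84 in Aim2 KO and -0.58, -0.37 and -0.54 in WT, did not have Aim2 KO library 1 at the bottom. The 13 dendritic cell genes, at 0.12, 0.22 and 0.66 in Aim2 KO and -0.26, -0.20 and -0.54 in WT, had all Aim2 KO libraries above WT, as the 4 monocyte genes did at 0.14, 0.97 and 1.42 in Aim2 KO and -0.42, -1.32 and -0.79 in WT. The 9 general phagocyte genes overlapped, at -0.24, 0.56 and 0.63 in Aim2 KO and -0.48, -0.24 and -0.21 in WT. Over all 38 genes Aim2 KO library 1 was the lowest of the 6. Their averages were -0.34, 0.53 and 0.61 in Aim2 KO, against -0.31, -0.18 and -0.31 in WT.

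**Figure D4:**
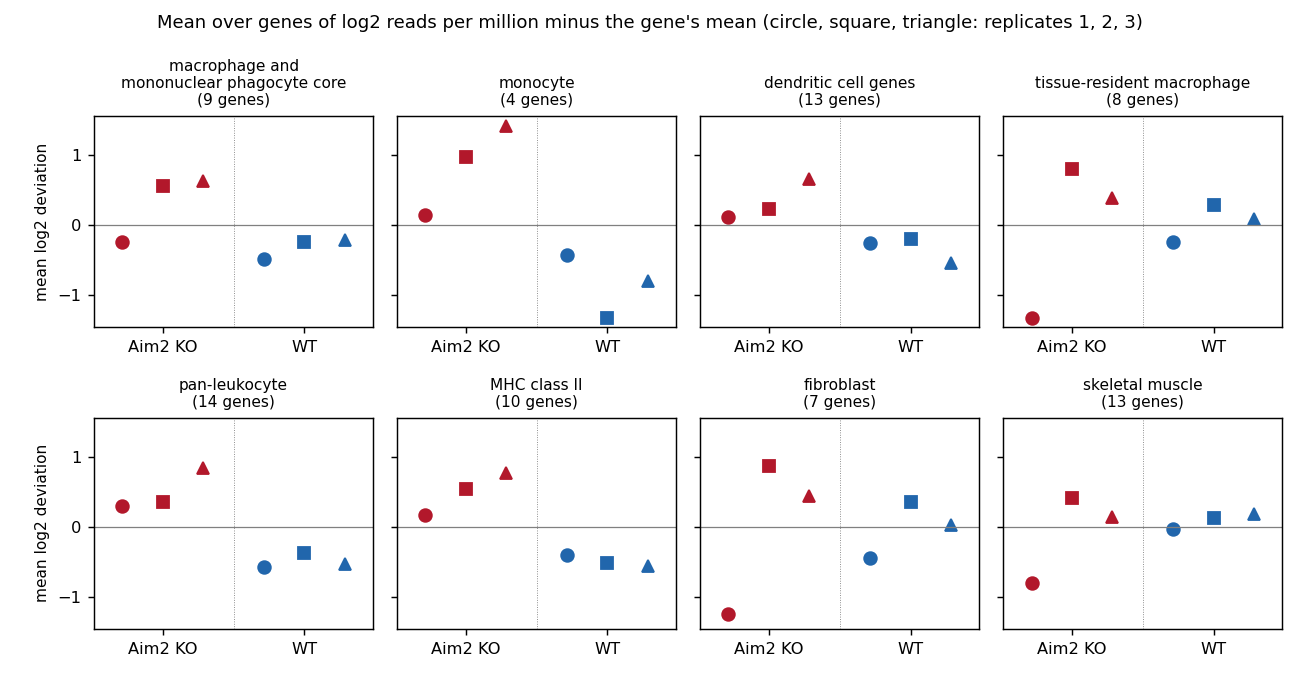
Each panel shows 1 gene list, and each point 1 library, with Aim2 KO left of WT. The axis is the mean over genes of log2 depth-scaled reads minus each gene's mean over the 6 libraries. The resident macrophage and fibroblast panels share the low circle of Aim2 KO library 1, whereas in the monocyte, dendritic, pan-leukocyte and MHC class II panels every Aim2 KO point lies above every WT point. In the general phagocyte panel Aim2 KO library 1 lies within the WT range.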

How the data were processed

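Total RNA of tongue tissue was sequenced from libraries that a company had built, per the labels. The authors deposited FPKM values of 35275 genes in 1 table that has a column for each library. The aligner, counting tool, build and annotation remain not given in the sources used here. Coordinates are those of the table, read as GRCm38, since 24919 of the 34490 gene IDs found in GENCODE M21 have identical coordinates there. Whole reads were recovered from FPKM times gene length (100% of values above 0 came within 0.01 of a whole read).

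Libraries were grouped by the genotype in their titles. limma 3.58.1 (R 4.3.3, trended prior) was fitted to log2(FPKM + 1) of the 12144 genes whose mean reached 1 FPKM, two-sided, with Benjamini-Hochberg adjustment over them and a threshold of 0.05. The pseudocount of 1 understates differences of low genes. The 38 genes and all lists were chosen with earlier results of these data known, so no p is given for a list. The rule for named genes took, in each role, up to 4 tested genes by p and 2 by level, genes under the filter that did not overlap or reached 0.5 FPKM, up to 3 genes by p from other lists, and near-identical relatives. Members outside the rule are given to account for all 38, and Csf1 was chosen after its values were seen. Deviations used log2 reads scaled to depth.

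Alternatives were a pseudocount of 0.1, a filter at 0.1 FPKM or none, median-of-ratios and TPM scaling, voom on reads (at least 10 over the 6 libraries), array quality weights, the replicate block and leaving out each library. Leaving out libraries for the counts of groups without overlap was added after the data were seen. Counts of reads carry counting error only.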

Additional observations from a re-analysis of the deposited data

How the results depend on the processing

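The number of genes past the threshold among all genes was 1, and it was 0 in 4 settings (no filter, the lower filter of 0.1 FPKM, TPM, and the replicate block), 68 with array quality weights and 0 to 14 when a library was left out (14 without Aim2 KO library 1). Of the 38 genes 0 passed, 2 with array quality weights (Aif1 and Ctss) and 0 to 1 when a library was left out (Aif1 without Aim2 KO library 1). With the replicate block 0 of the 38 passed. Deviations of same-numbered libraries correlated at 0.35, 0.46 and 0.03, and Aim2 KO library 3 correlated best with WT library 2 (0.21), so the numbers were not taken to pair the libraries. The count of the 38 that were higher without overlap was 11, and 11 to 24 when a library was left out. The count lower without overlap was 0, and 0 to 1 when a library was left out (Siglec1 without Aim2 KO library 2 and Arg1 without WT library 2). The median log2 difference of the general phagocyte genes, 0.36, was 0.53 with a pseudocount of 0.1, 0.64 with array quality weights and 0.34 to 0.55 when a library was left out. That of the dendritic cell genes, 0.44, was over 4 tested genes, of which 2 (Itgax and Cd83) reached the filter only through Aim2 KO. It was 0.69 with a pseudocount of 0.1 and 0.31 to 0.58 when a library was left out. Over all 13 dendritic cell genes it was 0.22 with either lower filter and 0.62 by voom. That of the resident macrophage genes ran from -0.26 to 0.33, and that of the alternative activation and lipid genes from -0.22 to 0.15, when a library was left out. Over all 21 tested genes the median of 0.29 ran from 0.08 to 0.41. The count with a positive difference, 17 of 21, was 15 of 21 with median-of-ratios scaling and 18 of 21 with array quality weights. It was 21 of 22, 11 of 19 and 12 of 18 without Aim2 KO library 1, 2 or 3. Without WT library 1, 2 or 3 it was 14, 18 and 17 of 21. The signs of single genes that turned were those of Apoe (-0.028) and Lgmn (-0.0082) with median-of-ratios scaling and of Cd163 (0.19) with array quality weights. When a library was left out, the log2 difference ran from -0.082 to 0.15 for Apoe, -0.12 to 0.31 for Lgmn, -0.32 to 0.27 for Cd163, -0.45 to 0.0063 for Arg1, -0.42 to 0.022 for Folr2, -0.20 to 0.40 for Mrc1, -0.36 to 0.64 for Pf4 and -0.87 to 0.34 for Retnla. The cause was not tested. Batf3, Xcr1 and Clec9a rest on 0 to 23 reads a library, which limits what could be detected in them.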

Other observations

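The 38 genes were also set against the pan-leukocyte genes within each library, by taking the difference of their mean log2 deviations. The 9 general phagocyte genes minus the 14 pan-leukocyte genes gave -0.53, 0.21 and -0.22 in Aim2 KO libraries 1 to 3, against 0.09, 0.13 and 0.33 in WT libraries 1 to 3. For the 13 dendritic cell genes the values were -0.17, -0.13 and -0.18 in Aim2 KO, against 0.32, 0.17 and -0.01 in WT. For the 8 resident macrophage genes they were -1.61, 0.45 and -0.46 in Aim2 KO, against 0.34, 0.66 and 0.62 in WT. For the 4 monocyte genes they were -0.15, 0.62 and 0.58 in Aim2 KO, against 0.15, -0.95 and -0.25 in WT. So relative to the pan-leukocyte genes, the 13 dendritic cell genes had all 3 Aim2 KO libraries below all 3 WT libraries. The gap was narrow, from -0.13 in Aim2 KO library 2 to -0.01 in WT library 3. With the 13 genes split by role, the groups overlapped. For the 8 lineage and subset genes Aim2 KO library 2 (-0.06) lay above WT library 3 (-0.12). For the 5 maturation genes Aim2 KO library 1 (0.02) lay above WT library 2 (-0.18). The groups also overlapped for the general phagocyte, resident macrophage and monocyte genes. For the resident macrophage genes Aim2 KO library 2 lay between WT libraries 1 and 3. These are descriptions of means over chosen genes and carry no test.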
